A study of Mus musculus with 1 sample.

Results

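The cells described here were cycling fibroblasts of the young mouse pancreas. They were chosen by their transcripts: at least 3 unique molecular identifiers (UMIs, each standing for 1 captured transcript) of the 4 cell cycle genes Mki67, Top2a, Cenpf and Birc5 summed, and at least 10 UMIs of the collagen genes Col1a1 and Col3a1 summed. In addition, no UMI was allowed of Ptprc, Cd3d, Cd3e, Cd3g, Cd79a and Cd79b (immune cells), of Msln and Upk3b (mesothelium) or of Cdh5 and Pecam1 (endothelium). Of the 10129 retained cells, which had over 800 and under 10000 UMIs and under 15% mitochondrial UMIs, 176 met the rule, a share of 1.74% with an exact (Clopper-Pearson) 95% interval of 1.49 to 2.01%. They were 3.22% (2.77 to 3.73%) of the 5459 retained cells that passed the collagen gate and the 3 gates at 0 UMIs, and 33.8% of the 520 retained cells of any kind that passed the cycle gate. The 4999 cells with the same gates and 0 UMIs of the 4 cycle genes are called comparison cells, and the 284 fibroblasts between, with 1 or 2 cycle UMIs, are given where they add to the picture.

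The study asked how loss of SCAP, the sterol-sensing escort protein that activates the SREBP transcription factors, changed the cell populations of the young pancreas. The library analysed came from Scap f/f mice, which carry the floxed Scap allele but no Cre recombinase and therefore keep Scap. The sample is titled wildtype, and it pooled the pancreata of 5 to 6 mice, males and females in equal number, at 2 weeks of age. The Scap-deleted library was not analysed here. The pancreata were dissociated with Collagenase P, dead cells were removed, and 1 droplet library was made by 10x Genomics 3′ chemistry. With 1 library there is no replicate, so no test between conditions was possible, no p-value is given, and all intervals cover counting error only. Cells of 1 library share their pool, digestion and sequencing, and a cell could not be assigned to an animal.

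A cell that divides copies its DNA in S phase and segregates the copies in mitosis, and it makes the transcripts for each step shortly before they are used. Transcripts for DNA licensing and nucleotide synthesis come with the approach to S phase, histone transcripts accompany DNA synthesis, and transcripts of the mitotic kinases, kinetochore and spindle accumulate in G2 and mitosis. Fibroblasts of the postnatal pancreas are the collagen-producing cells of the septa, vessels and lobules, and the organ still grows quickly at this age. Mki67 encodes the nuclear antigen Ki-67, which coats mitotic chromosomes. Top2a encodes the topoisomerase that untangles sister DNA, Cenpf a kinetochore protein, and Birc5 survivin, a subunit of the chromosomal passenger complex.

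Mitotic genes are known to be switched together through short promoter elements: the cell cycle genes homology region (CHR, letters TTTGAA or TTCGAA), which the DREAM and MuvB complexes bind, and the CCAAT box, which NF-Y binds. Genes of DNA replication are better known for E2F sites. The 120 bases just upstream of the RefSeq transcription start are printed here for the 4 genes that chose the cells. They are also printed for Ccnb2 (cyclin B2, a partner of the mitotic kinase) and for Mcm6 (a subunit of the replicative helicase). The genes were taken from the mitotic and replication programmes that are described below. Sequences are from RefSeq on GRCm38.p6, 5′ to 3′ on the strand of the gene, and capitals mark matches, on either strand, to the CHR letters, to CCAAT or to the E2F letters TTTGGCGC, TTTCGCGC or TTTCCCGC.
Top2a (chr11:99024190-99024309, minus strand): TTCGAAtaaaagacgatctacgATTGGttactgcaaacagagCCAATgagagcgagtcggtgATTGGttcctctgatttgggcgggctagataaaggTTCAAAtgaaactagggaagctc
Mki67 (chr7:135716380-135716499, minus strand): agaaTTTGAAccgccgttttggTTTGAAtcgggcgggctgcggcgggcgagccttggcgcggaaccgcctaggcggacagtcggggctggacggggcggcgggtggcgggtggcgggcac
Cenpf (chr1:189688087-189688206, minus strand): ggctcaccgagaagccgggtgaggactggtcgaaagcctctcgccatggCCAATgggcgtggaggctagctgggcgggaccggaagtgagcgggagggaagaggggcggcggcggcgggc
Birc5 (chr11:117849117-117849236, plus strand): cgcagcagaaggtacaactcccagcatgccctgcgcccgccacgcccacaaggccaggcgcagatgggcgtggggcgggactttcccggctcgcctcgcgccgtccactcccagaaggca
Ccnb2 (chr9:70421555-70421674, minus strand): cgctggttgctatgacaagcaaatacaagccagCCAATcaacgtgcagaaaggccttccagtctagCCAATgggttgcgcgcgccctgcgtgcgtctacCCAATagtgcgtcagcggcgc
Mcm6 (chr1:128359706-128359825, minus strand): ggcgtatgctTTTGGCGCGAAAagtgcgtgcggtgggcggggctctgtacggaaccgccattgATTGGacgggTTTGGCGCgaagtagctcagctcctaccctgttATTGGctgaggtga

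The Top2a stretch held CHR letters at both ends with CCAAT boxes between, the Mki67 stretch a pair of CHR matches, the Cenpf stretch a CCAAT box, and the Ccnb2 stretch 3 CCAAT boxes. The Mcm6 stretch held 3 E2F matches, of which the first and second overlap, and 2 CCAAT boxes, while the Birc5 stretch held none of these letters. Over the 250 bases upstream of the start, 35 of the 45 genes on the mitotic lists used below had a promoter in the table, and 26 of these 35 (74.3%) held a CCAAT box, against 34.5% of all 27025 promoters. CHR letters stood in 12 of the 35 (34.3%, against 17.4% of all promoters and 11.8% of the 8026 promoters of genes with at least 100 UMIs), and both elements together in 11 (31.4%, against 6.21% of all). Of the 29 replication genes 24 had a promoter, of which 16 (66.7%) held a CCAAT box and 5 (20.8%) an E2F match. An E2F match stood in 1.59% of all promoters and in 3.19% of the promoters of genes with at least 100 UMIs. Of the 54 matrix genes 39 had a promoter, and 10 (25.6%) held a CCAAT box, 5 (12.8%) CHR letters and 0 an E2F match. A frequent CCAAT box was not limited to the cycle lists, since 21 of 30 promoters (70.0%) of the genes of sterol and fatty acid synthesis held one as well, while 3 (10.0%) held CHR letters and 0 an E2F match. A match describes the letters in the window and is not a measured site, and no match says only that those letters are not in this window.

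The members had 760280 UMIs in all, from 879 to 9915 per cell with a median of 3754, and a median of 1894 genes. Comparison cells had 803 to 9976 UMIs with a median of 2505, and a median of 1338 genes. With 800 UMIs drawn from every cell, members had a median of 594 genes and comparison cells 563, so the gap narrowed but did not close. Mitochondrial transcripts took a median of 1.80% of UMIs in members and 1.91% in comparison cells. Levels are given as CPM, the UMIs of a gene summed over a group, divided by all UMIs of that group and multiplied by 1000000.

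The 4 genes of the cycle gate chose the members, so their values are a description. Members held 3 to 48 UMIs of the 4 genes together, with a median of 7. Top2a contributed most, with 909 UMIs in 168 members (0 to 38 per cell, median 4). Cenpf had 379 UMIs in 103 members (0 to 17, median 1), Birc5 320 UMIs in 142 members (0 to 7, median 1), and Mki67 288 UMIs in 128 members (0 to 10, median 1). Most members did not rest on a single gene: 62 held UMIs of all 4, 71 of 3, 37 of 2 and 6 of 1. At the edge of the rule stood 24 members with exactly 3 cycle UMIs, which had a median of 9.5 UMIs of 45 other mitotic genes (1 to 21). Just outside were 37 cells with 2 cycle UMIs, with a median of 6 (0 to 25), and 247 cells with 1, with a median of 1 (0 to 28). The ranges of mitotic UMIs per cell thus overlapped across the edge, while the medians differed.

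The fibroblast name was checked against genes that the rule did not use. Col1a2 was found in 174 of 176 members (0 to 191 UMIs, median 21), Sparc in 173 (0 to 76, median 14), Dcn, the small proteoglycan decorin, in 171 (0 to 86, median 11), and Pdgfra, the receptor that marks pancreatic fibroblasts, in 123 (0 to 12, median 1). Of the gate genes, Col1a1 had 0 to 130 UMIs per member (median 21) and Col3a1 4 to 266 (median 46). Together they took a median of 1.96% of UMIs in members. In retained cells with over 30% acinar enzyme UMIs they took 0.114% (90th percentile 0.284%). No such background share is given for the genes outside the rule. The name held for most members but not for all. A total of 26 members (14.8%, 9.88 to 20.9%) carried transcripts of another lineage by at least 1 of 4 criteria, against 381 of 4999 comparison cells (7.62%, 6.90 to 8.39%): 15 had over 5% of UMIs from 16 digestive enzyme genes of acinar cells, 7 had over 5% from red blood cell genes, 3 had at least 5 UMIs of Schwann cell genes and 2 at least 20 UMIs of contractile genes. The 26 had a median depth of 6286 UMIs, against 3618 in the other 150 members. The Schwann and contractile criteria are fixed numbers of UMIs, and the part of depth in these shares was not tested. Among the 15 with over 5% enzyme UMIs, enzymes took a median of 33.4% of UMIs. Their median of 8 fibroblast genes (Dcn, Col1a2, Sparc, Pdgfra, Lum, Gsn, Fstl1 and Dpt) was 9 UMIs, and 8 of the 15 had fewer than 10 UMIs of these genes. In the 150 members without such transcripts the same 8 genes had a median of 72.5 UMIs (13 to 376), against 72 in the comparison cells without them. Where leaving these cells out changed the 2-fold call of a gene described here, or the direction of a list, both values are given.

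**Figure D1:**
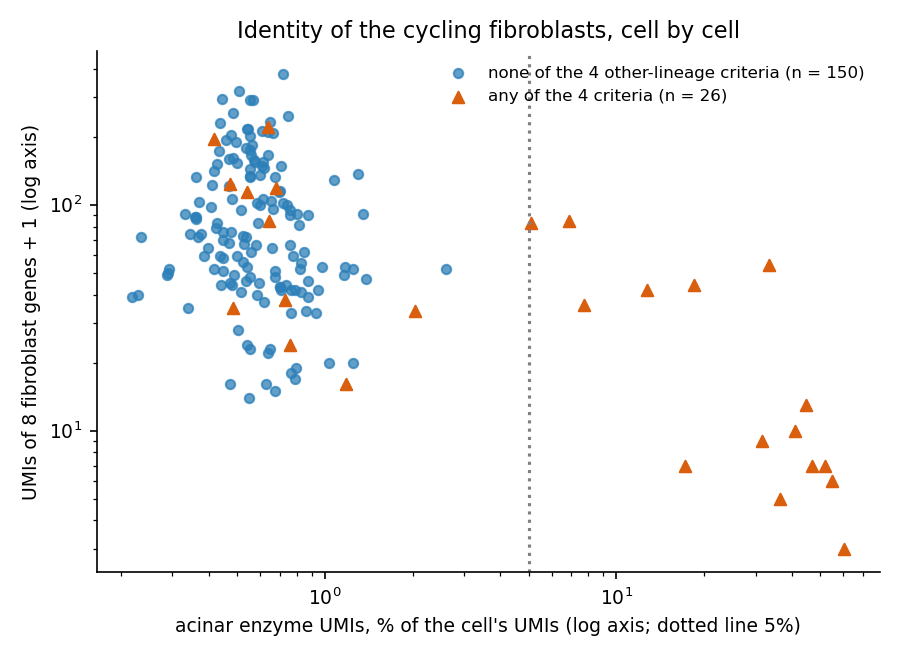
Each point is 1 of the 176 cycling fibroblasts, by acinar enzyme share of its UMIs (x axis, percent, log scale) and UMIs of 8 fibroblast genes plus 1 (y axis, log scale). The 150 cells that met no other-lineage criterion lie left of the dotted line at 5%, with 13 or more fibroblast UMIs each. The triangles are the 26 that met a criterion, of which 15 lie right of the line and 8 have fewer than 10 fibroblast UMIs.

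Transcripts of other cell types moved with the 26 cells. Acinar enzymes stood at 44630 CPM in members and 20990 CPM in comparison cells, and at 6047 and 7106 CPM once the other-lineage cells were left out of both. The most abundant enzyme gene, Ctrb1 (chymotrypsinogen), was found in 97.7% of members and 95.4% of comparison cells, and 1 member gave 14.3% of the members' 7604 UMIs. Since nearly every cell of both groups held it, a UMI of this gene was not read as expression by the cell, and its source was not tested. Red blood cell genes stood at 8857 and 4212 CPM, and at 447 and 487 CPM without the other-lineage cells. Schwann genes stood at 53.9 CPM in members, 3.37 times the level of comparison cells, and at 6.53 CPM, 0.802 times that level, without the other-lineage cells. Contractile genes stood at 768 and 484 CPM, and at 348 and 310 CPM without them, with 95 of the 225 Acta2 UMIs in 1 member. Acta2, smooth muscle actin, had a ratio of 2.64 and was past 2-fold, but stood at 1.69 and was not without them. Immune contamination was small: of 20 immune genes outside the gate, 15 had at least 1 UMI and 5 none, the sum was 60 UMIs (78.9 CPM, against 99.5 CPM in comparison cells), and the most abundant was Cd74, an antigen presentation gene, with 9. Of 9 further endothelial genes 7 had a UMI, 93.4 against 126 CPM, of which Tek gave 31 of 71 UMIs. Of 8 mesothelial genes 7 had a UMI, 146 against 156 CPM, of which Wt1 gave 76 of 111. Of 8 epithelial genes 7 had a UMI, 129 against 119 CPM, of which Spp1 gave 37 of 98, with 18 of them in 1 cell, and the sums were 91.4 and 91.8 CPM without the other-lineage cells. Pericyte genes stood at 252 against 221 CPM, and at 188 against 202 CPM without them, so their direction turned.

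The gates at 0 UMIs removed a larger share of the collagen-positive cells with cycle UMIs than of all collagen-positive cells. Of 277 retained cells that passed both the collagen and the cycle gate, 101 (36.5%, 30.8 to 42.4%) were removed by a gate at 0 UMIs: 52 held an immune gate UMI (18.8%, against 8.70% of all 6875 cells of the collagen gate), 37 a mesothelial one (13.4% against 9.56%) and 31 an endothelial one (11.2% against 4.67%). The 6875 include the 277, a gate at 0 UMIs removes deeper cells more readily, and the part of depth in these shares was not tested. The Scrublet caller, which scores a barcode by its likeness to simulated pairs of cells, marked 3 members (1.70%), 124 comparison cells (2.48%) and 502 retained cells (4.96%). By sex-linked transcripts, 76 members had UMIs of Xist only, 33 of Y-linked genes only, 13 of both (7.39%, 3.99 to 12.3%) and 54 of neither, while both were found in 4.52% of comparison cells. Transcripts of both sexes were thus found among the members. No background share was set for them, so the sex of single cells was not read. The part of barcodes that hold more than 1 cell in these values was not tested.

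Genes were compared by the ratio of CPM in members to CPM in comparison cells, with an exact conditional 95% interval from the 2 UMI counts. For a count of differing genes, 10 CPM was added to both levels and a 2-fold ratio was required, among 10122 genes with at least 100 UMIs over both groups. At that limit 411 genes (4.06%) were higher in members and 101 genes (0.998%) were lower, and the median ratio of all 10122 genes was 0.967. The counts depend on the CPM added: with 1 in place of 10, they were 672 higher and 635 lower. Of the 411, 86 were genes of the cycle gate or of the cell cycle and repair lists described next. A total of 353 remained past 2-fold when the other-lineage cells and all cells under 4000 UMIs were left out together. Of the 101, 0 were on those lists, and 67 remained. Since the cycle gate chose the members, a higher level of cycle genes as such was built into the comparison, and what follows describes which genes accompanied the gate and by how much. A cycle gene that is rare in comparison cells reached 100 UMIs only through the members, so counts of cycle genes past 2-fold are in part set by that minimum and are given as a description. The 120 genes of the gate and the cell cycle lists, without the repair genes, took 2.85% of the members' UMIs and 0.303% of those of comparison cells. Ribosomal protein genes took 12.1% and 14.0%.

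The replication genes were higher almost without exception. Summed over 29 genes of origin licensing, the replication fork and nucleotide supply, the level was 2620 CPM (2506 to 2738) in members and 493 CPM (482 to 505) in comparison cells, a ratio of 5.31 (5.05 to 5.58), and 22 of the 23 with at least 100 UMIs were past 2-fold, against 4.06% of all genes. The exception was Mcm4, at 78.9 against 38.8 CPM, a ratio of 2.04 that came to less than 2 with 10 CPM added. Without the other-lineage cells its ratio was 2.32 and all 23 were past 2-fold. Among the licensing and fork genes, Mcm10, a helicase cofactor, stood at 25.0 CPM in members and 1.06 in comparison cells (ratio 23.5, 11.5 to 48.9). Clspn, the claspin of the replication checkpoint, had a ratio of 23.9 (16.1 to 35.6), and Pcna, the sliding clamp, had 281 against 56.7 CPM (ratio 4.97, 4.25 to 5.77). Of the helicase subunits other than Mcm4, Mcm6, Mcm2 and Mcm3 had ratios of 2.41, 2.89 and 3.09, and Mcm5 and Mcm7 of 4.47 and 5.32. Nucleotide genes differed more: all 7 were past 2-fold, led by Tk1 (thymidine kinase, 110 against 1.39 CPM, ratio 79.3, 48.7 to 135) and Rrm2 (the cell cycle-regulated subunit of ribonucleotide reductase, 113 against 2.39 CPM, ratio 47.3, 31.7 to 71.9). Rrm1, the constant subunit, had a ratio of 7.48 (6.06 to 9.19) and Dut, which removes dUTP, 4.37 (3.67 to 5.17). At the cell level Pcna was found in 87 members and Rrm2 in 56, with medians of 0 UMIs, so most single cells gave few UMIs of any 1 replication gene.

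The replication histones stood furthest from comparison cells. The 10 histone genes, summed because they were listed separately, had 2506 CPM in members and 26.0 in comparison cells, a ratio of 96.3 (86.3 to 108), although replication histone transcripts lack a poly(A) tail and a 3′ poly(A) library captures them poorly. With gate, mitochondrial, ribosomal and unnamed genes left out, Hist1h2ap (mm10, chr13:21833026-21833507, minus strand) had the largest ratio with 10 CPM added. Its level was 1526 against 4.51 CPM (338, 264 to 438), with a ratio of 564 without the other-lineage cells. It was found in 111 members, with 0 to 70 UMIs and a median of 3.5, and in 42 comparison cells, with at most 9. After thinning to 800 UMIs it remained in 44.9% of members and 0.260% of comparison cells. Hist1h2ae, the linker histone Hist1h1b and Hist1h1e had ratios of 164, 173 and 11.7. Histone genes of 1 class are near-identical copies, so the split of UMIs among them is uncertain and the sum is the safer value.

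Genes of mitosis were higher as a block. The 45 genes of mitotic entry, kinetochore and spindle had 8251 CPM (8048 to 8458) in members and 219 CPM (211 to 226) in comparison cells, a ratio of 37.7 (36.2 to 39.4). All 32 with at least 100 UMIs were past 2-fold, against 4.06% of all genes, a count that the minimum of 100 UMIs set in part. Mitotic entry genes differed by 64.6-fold (58.2 to 71.7), among them Cdk1, the mitotic kinase (425 against 10.6 CPM), its cyclins Ccna2, Ccnb1 and Ccnb2 (ratios 176, 137 and 85.7), and the kinases Plk1, Aurka and Aurkb (131, 158 and 173). Kinetochore genes differed by 58.8-fold (53.0 to 65.3), including Cenpa, the histone of centromeres (333 against 4.85 CPM), and Spc25 of the NDC80 complex (229 against 1.73 CPM). Spindle and cytokinesis genes differed by 28.0-fold (26.6 to 29.6). Nusap1, which bundles spindle microtubules, had 495 against 4.12 CPM and was found in 122 members (0 to 16 UMIs, median 1), and Prc1, of the central spindle, had 426 against 2.32 CPM and was found in 107 (0 to 22, median 1). The remaining genes with the highest ratios were Tpx2, Racgap1, Ect2 and Ckap2 of the spindle, Ube2c of the anaphase-promoting complex pathway (546 against 6.17 CPM), Cks2, a subunit of cyclin-dependent kinase complexes (529 against 9.56 CPM), and Pclaf, a PCNA-bound protein (509 against 5.98 CPM). Among these 15 genes the lowest ratio with the other-lineage cells left out, or with cells of at least 4000 UMIs, was 49.9, of Cks2.

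Chromatin and exit genes followed, with 1 exception. The 12 condensation genes had a ratio of 6.98 (6.79 to 7.17), since several are abundant in resting cells too: Hmgb2 stood at 2108 against 94.2 CPM (22.4, 20.8 to 24.1) and H2afz at 2291 against 253 CPM (9.06, 8.56 to 9.59), whereas Hmgb1 reached 3.02. Hmgb2 was found in 174 members and 22.1% of comparison cells, and in 71.0% and 6.78% after thinning to 800 UMIs, which made it the most widely detected cycle-linked gene outside the gate among those followed cell by cell. Stmn1, which destabilises microtubules, was found in 153 members (0 to 12 UMIs, median 3) at 846 against 32.3 CPM. Of 7 tested genes of the anaphase-promoting complex and mitotic exit, 6 were past 2-fold, against 4.06% of all genes. Pttg1, securin, was not: it had 22 UMIs in members, 28.9 against 40.9 CPM (ratio 0.708, 0.440 to 1.08), while its partner in the same pathway, Cdc20, had 178 against 1.99 CPM. DNA repair genes had a ratio of 6.69 (6.16 to 7.26) with 5 of 6 past 2-fold, against the same 4.06%. They included Brca1 at 44.7 times the level of comparison cells.

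**Figure D2:**
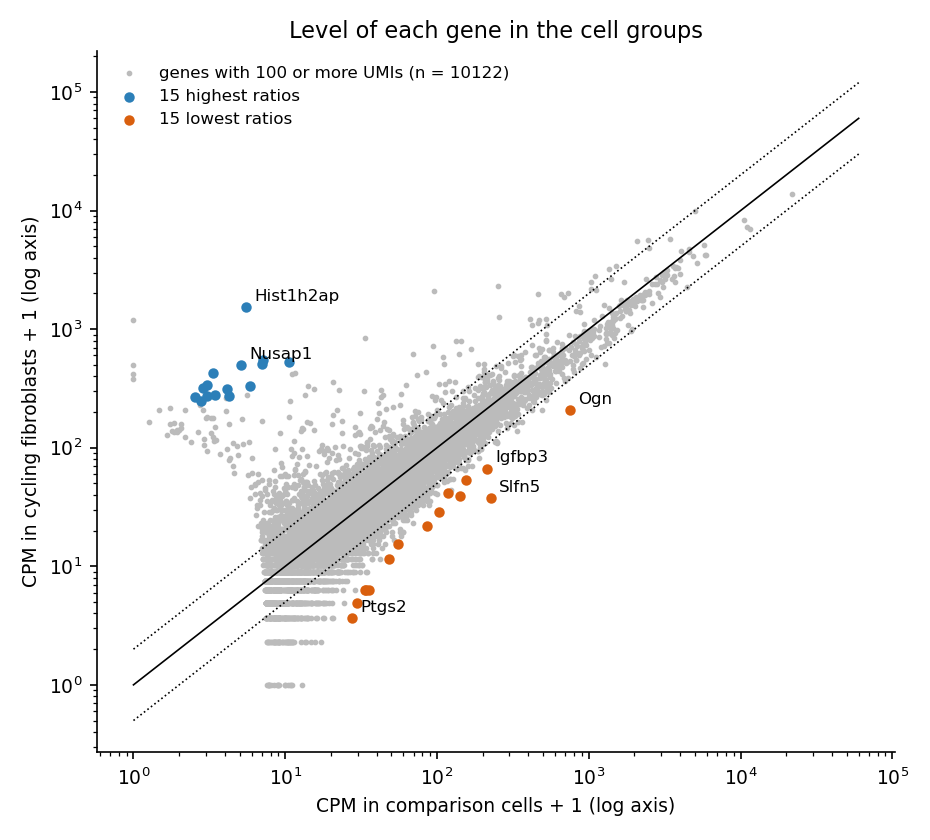
Each grey point is 1 of 10122 genes, by CPM plus 1 in the comparison cells (x axis) and in the cycling fibroblasts (y axis), both on log scales. The coloured points are the 15 genes with the highest and the 15 with the lowest ratio, with gate, mitochondrial, ribosomal and unnamed genes left out. The highest lie at 1.53 to 9.56 CPM in comparison cells and at 246 to 1526 CPM in members, and the lowest at 26.6 to 747 CPM in comparison cells.

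Members differed among themselves in which programme they carried. They held 0 to 68 UMIs of the 29 replication genes (median 8.5) and 1 to 152 UMIs of the 45 mitotic genes (median 26). A total of 143 members had more mitotic than replication UMIs, 32 had more replication UMIs and 1 had as many of each, and 12 lay within 2 UMIs of equality. The lists differ in length and abundance and the gate genes themselves peak in G2 and mitosis, so the split describes the members and not time spent in each phase. At least 5 histone UMIs were found in 89 members and at least 5 UMIs of 7 late mitotic genes (Cdc20, Ccnb1, Plk1, Cenpe, Hmmr, Kif20a and Aurka) in 64. Both were found in 24 members, whose median depth was 5922 UMIs, and neither in 47, whose median depth was 2945. Depth therefore moved with how fully a cell could be placed, and its part was not tested.

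**Figure D3:**
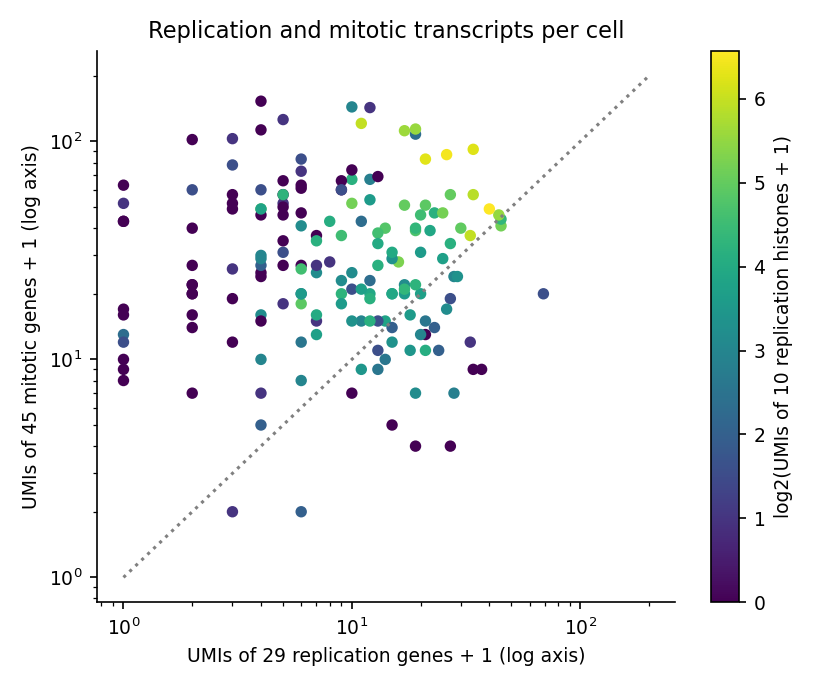
Each point is 1 of the 176 cycling fibroblasts, by UMIs plus 1 of 29 replication genes (x axis) and of 45 mitotic genes (y axis), both on log scales, and the colour gives log2 of replication histone UMIs plus 1. The cell with the most mitotic UMIs, 152, has 3 replication UMIs. The cells with 143 and 142 mitotic UMIs have 9 and 11, against a median of 8.5 over all members. The cells with the most histone UMIs lie high on both axes. The dotted line marks equal values.

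Some cells outside the rule carried the programmes as well. At least 5 replication UMIs were found in 307 comparison cells (6.14%, 5.49 to 6.84%), and at least 5 mitotic UMIs in 50 (1.00%, 0.743 to 1.32%), although these cells had 0 UMIs of the gate. At least 5 late mitotic UMIs were found in 0 of 4999, which allows a share of up to 0.0600% by a limit of 3 counts, or 0.0738% as the exact (Clopper-Pearson) bound. Among the 284 fibroblasts with 1 or 2 cycle UMIs, 76 (26.8%) had at least 5 replication UMIs and 51 (18.0%) at least 5 mitotic UMIs. At an equal depth of 2000 UMIs per cell, at least 3 replication UMIs remained in 66.2% of members, 26.9% of the cells with 1 or 2 cycle UMIs and 8.40% of comparison cells. For at least 3 mitotic UMIs the shares were 94.9%, 12.3% and 1.92%. Thinning left out 19 members, 57 of the cells between and 1714 comparison cells as too shallow. The gate genes are themselves mitotic, so few gate UMIs and few mitotic UMIs go together by the rule, and the replication list had the higher level in comparison cells. The shares of the 2 lists outside the gate are therefore a description of each and not a comparison between them.

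Histone-rich and late mitotic members were set side by side, leaving out the cells with both, with neither or with other-lineage transcripts: 57 members with at least 5 histone UMIs only (median 3405 UMIs) and 34 with at least 5 late mitotic UMIs only (median 4078 UMIs). Both lists chose these cells, so genes on them are not compared. Licensing and fork genes stood at 2744 CPM in the histone-rich and 547 CPM in the late mitotic members, and Pcna at 465 and 50.9 CPM. Genes of the other direction included Ube2c, at 247 and 1145 CPM, Cenpf at 218 and 1114 CPM, Tubb4b, a tubulin, at 309 and 1037 CPM, and Arl6ip1, an endoplasmic reticulum shaping protein, at 347 and 1483 CPM. Of the gate genes Cenpf was thus 5.10 times as high in late mitotic members (3.67 to 7.22), whereas Top2a was 1.24 times as high (1.03 to 1.50). Matrix genes were also higher in the late mitotic members, 46970 against 39390 CPM (ratio 1.19, 1.16 to 1.23), as were 20 fibroblast lineage markers, 9099 against 6124 CPM (1.49, 1.38 to 1.60). Eln, the gene of elastin, went the other way, 242 against 688 CPM (0.351, 0.239 to 0.505).

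Genes that hold the cycle back did not move together. Of 16 inhibitor and quiescence genes 14 had at least 100 UMIs, 3 of which were past 2-fold higher (4.06% of all genes were) and 0 lower (0.998%), and 2 and 1 in cells of at least 4000 UMIs. The list as a whole had a ratio of 0.751 (0.723 to 0.780). Cdkn2c, which encodes the CDK4 and CDK6 inhibitor p18 (mm10, chr4:109660876-109667189, minus strand), stood at 330 CPM in members and 13.2 in comparison cells (ratio 25.0, 20.7 to 30.3). It was found in 104 members (0 to 10 UMIs, median 1) and in 3.76% of comparison cells (at most 5 UMIs), and in 26.1% and 1.18% after thinning to 800 UMIs. The other members higher were Ccng2, an atypical cyclin linked to arrest (98.7 against 30.6 CPM, 3.22, 2.49 to 4.12), and Cdkn1a, p21 (43.4 against 14.3 CPM, 3.03, 2.03 to 4.38). Cdkn1c, p57, stood at 542 against 748 CPM (0.724, 0.655 to 0.799), and the quiescence-linked factors Klf2 and Klf4 at 0.584 and 0.520 times the level of comparison cells. The E2F and G1 cyclin list stood at 1.25 (1.15 to 1.36), with 3 of 9 tested genes past 2-fold higher, and its members went both ways. The D cyclins, which receive growth signals in G1, were lower, Ccnd1 at 0.633 (0.443 to 0.877), Ccnd2 at 0.494 (0.384 to 0.627), not past 2-fold with 10 CPM added but past it without the other-lineage cells (0.431) and in cells of at least 4000 UMIs (0.453), and Ccnd3 at 0.690 (0.563 to 0.837). The E cyclins, which act at the start of S phase, were higher, Ccne1 at 7.60 (4.73 to 11.9) and Ccne2 at 23.1 (16.7 to 32.1), as was the repressor E2f8 at 69.3 (35.8 to 145). None of 10 immediate early genes was past 2-fold, and their ratios ran from 0.556 for Atf3 to 0.998 for Fosb.

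Arranged by the number of cycle UMIs, the lists changed in different ways. Leaving out the other-lineage cells, there were 4618 fibroblasts with 0 cycle UMIs, 234 with 1 or 2, 40 with 3 or 4, 46 with 5 to 9 and 64 with 10 or more, with median depths of 2485, 3464, 2676, 3296 and 4781 UMIs. Mitotic genes stood at 218, 641, 4457, 7752 and 11380 CPM in this order. Replication genes stood at 498, 1062, 3773, 3472 and 2352 CPM. The order is that of genes which the rule used and which peak in G2 and mitosis, so the course of the mitotic and replication lists along it is a description. Mitotic genes were highest in the cells richest in gate UMIs, whereas replication genes were lowest among the members in those cells, and their intervals overlapped between 3 or 4 (3441 to 4128) and 5 to 9 (3186 to 3777). Cdkn2c stood at 12.9, 15.6, 175, 301 and 502 CPM, in the order of the mitotic genes. Matrix genes stood at 60230, 56950, 42680, 42170 and 46880 CPM, so the step lay between 1 or 2 and 3 or 4 cycle UMIs, the edge of the rule. Ogn (782, 777, 143, 237 and 260 CPM) and Slfn5 (234, 199, 55.7, 25.6 and 39.3 CPM) had their step at the same place, while Eln was lower already at 1 or 2 and lowest at 10 or more (1206, 864, 693, 609 and 302 CPM). The values of Slfn5 in members rest on 7, 4 and 13 UMIs. Pdgfra had no such step (416, 454, 366, 532 and 453 CPM).

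**Figure D4:**
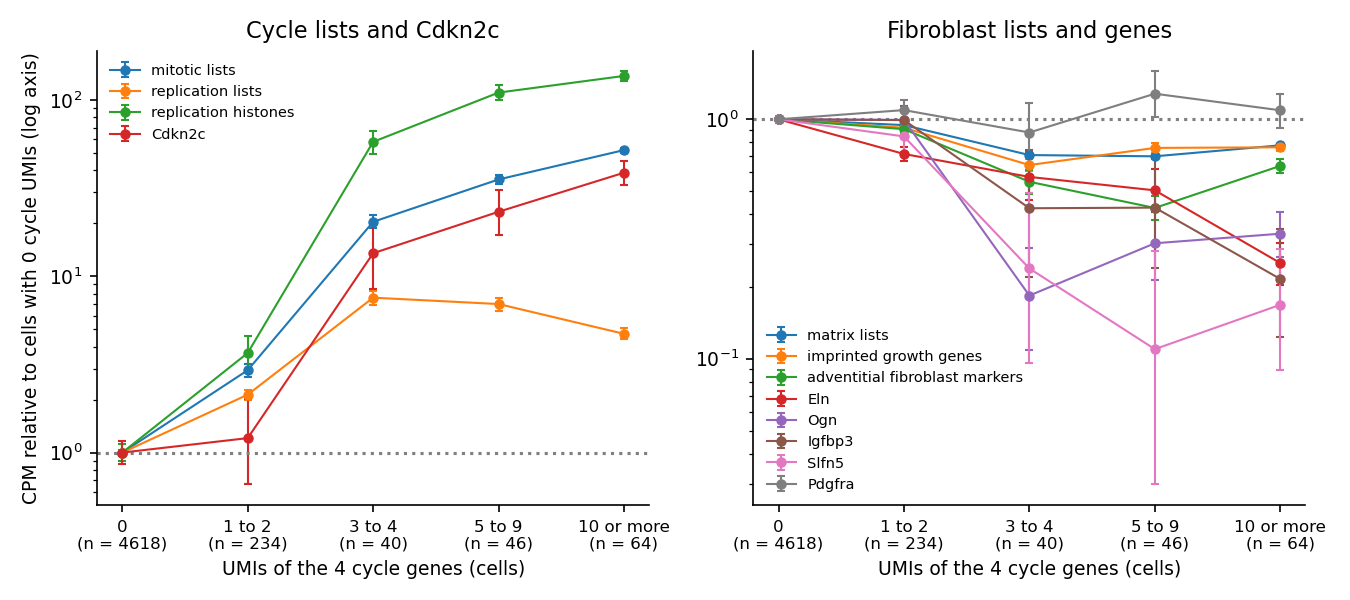
CPM relative to fibroblasts with 0 cycle UMIs (y axis, log scale) in fibroblasts grouped by UMIs of the 4 cycle genes (x axis), without the other-lineage cells, and bars give exact 95% Poisson intervals. Left, mitotic genes climb to the last group, with 11380 against 218 CPM, and replication genes are lower at 10 or more UMIs, with 2352 CPM, than at 3 or 4, with 3773 CPM. Right, matrix genes, Ogn and Slfn5 are lower from 3 or 4 UMIs on, and Pdgfra stays near its level at 0 UMIs.

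Matrix genes were lower in the cycling cells as a class, though few of them by 2-fold. The 54 genes of other collagens, collagen processing, elastic fibres, proteoglycans and matricellular proteins had 39790 CPM (39350 to 40240) in members and 57980 CPM (57850 to 58100) in comparison cells, a ratio of 0.686 (0.679 to 0.694), with 52 of 54 below 1 and a median of 0.716, against 0.967 over all genes. Past 2-fold lower were 2 of 54, against 0.998% of all genes. In cells of at least 4000 UMIs 4 were, with Dpt and Efemp1 added. The ratio was 0.744 without the other-lineage cells, 0.655 in cells of at least 4000 UMIs and 0.732 with both. Both groups had to pass the collagen gate, at a median of 73 and 75 UMIs of Col1a1 and Col3a1, while members had more UMIs in all, and the part of the gate in this ratio was not tested. Col1a1 and Col3a1 themselves stood at 0.607 and 0.629. The 13 collagen processing genes were all below 1, from Loxl2, a lysyl oxidase (0.494), to P4hb, of prolyl hydroxylase (0.968). Basement membrane collagens did not share the difference, with Col4a1 at 1.06 (0.982 to 1.15), Col4a2 at 1.05 (0.947 to 1.17) and Col15a1 at 0.999 (0.914 to 1.09).

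The 2 matrix genes past 2-fold over cells of all depths were Ogn and Eln. Ogn, the small leucine-rich proteoglycan osteoglycin (mm10, chr13:49608046-49624501, plus strand), had 208 CPM in members and 747 in comparison cells (0.278, 0.236 to 0.326). It was found in 73 members (0 to 15 UMIs, median 0) and in 65.8% of comparison cells (0 to 29, median 1), and after thinning to 800 UMIs in 16.5% and 38.7%. Fewer cycling fibroblasts thus carried it at equal depth. Eln had 508 against 1270 CPM (0.400, 0.361 to 0.442), with up to 48 UMIs in a member and up to 467 in a comparison cell. Nearly the same share of cells held a UMI at full depth, 56.8% and 57.3%, but members were deeper. After thinning the shares were 24.4% and 31.9% at 800 UMIs, and 38.9% (31.2 to 46.9%) and 52.4% (50.7 to 54.1%) at 2000 UMIs, so fewer members held Eln as well at equal depth. Dcn, Lum and Sparc stood at 0.701, 0.735 and 0.715.

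Markers of the fibroblast lineage were split. Of 20 lineage markers 10 lay above and 10 below a ratio of 1, with a median of 0.995, and 1 was past 2-fold, Fndc1, at 250 against 525 CPM (0.476, 0.410 to 0.550). Without the other-lineage cells 8 of 20 lay below 1 with a median of 1.08, and Fndc1, at 0.515, was no longer past 2-fold. Of the surface proteins, the receptor Pdgfra stood at 0.972 (0.862 to 1.09) and Thy1 at 1.05 (0.861 to 1.26), while Cd34 stood at 0.728 (0.651 to 0.811). Transcription factors lay on both sides of 1, with Tcf21 at 1.12 (0.876 to 1.42), Prrx1 at 1.17 (1.03 to 1.32) and Osr1 at 0.611 (0.448 to 0.814). The filament gene Vim stood at 1.10 (1.03 to 1.18). After thinning to 800 UMIs Pdgfra was found in 31.8% of members and 25.9% of comparison cells, and after thinning to 2000 UMIs in 50.3% and 50.1%. Dpt, which encodes the matrix protein dermatopontin, stood at 0.564 (0.508 to 0.624) and Gsn, gelsolin, at 0.646 (0.610 to 0.683). All 8 markers of adventitial fibroblasts, the cells around vessels and ducts, were below 1, and together they had 2183 against 4089 CPM (0.534, 0.508 to 0.561). Among them Clec3b, tetranectin, had 956 against 1908 CPM (0.501, 0.465 to 0.540) and Dpp4, a protease on progenitor fibroblasts, 67.1 against 148 CPM (0.453, 0.336 to 0.597), the 1 member of the list past 2-fold with 10 CPM added.

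**Figure D5:**
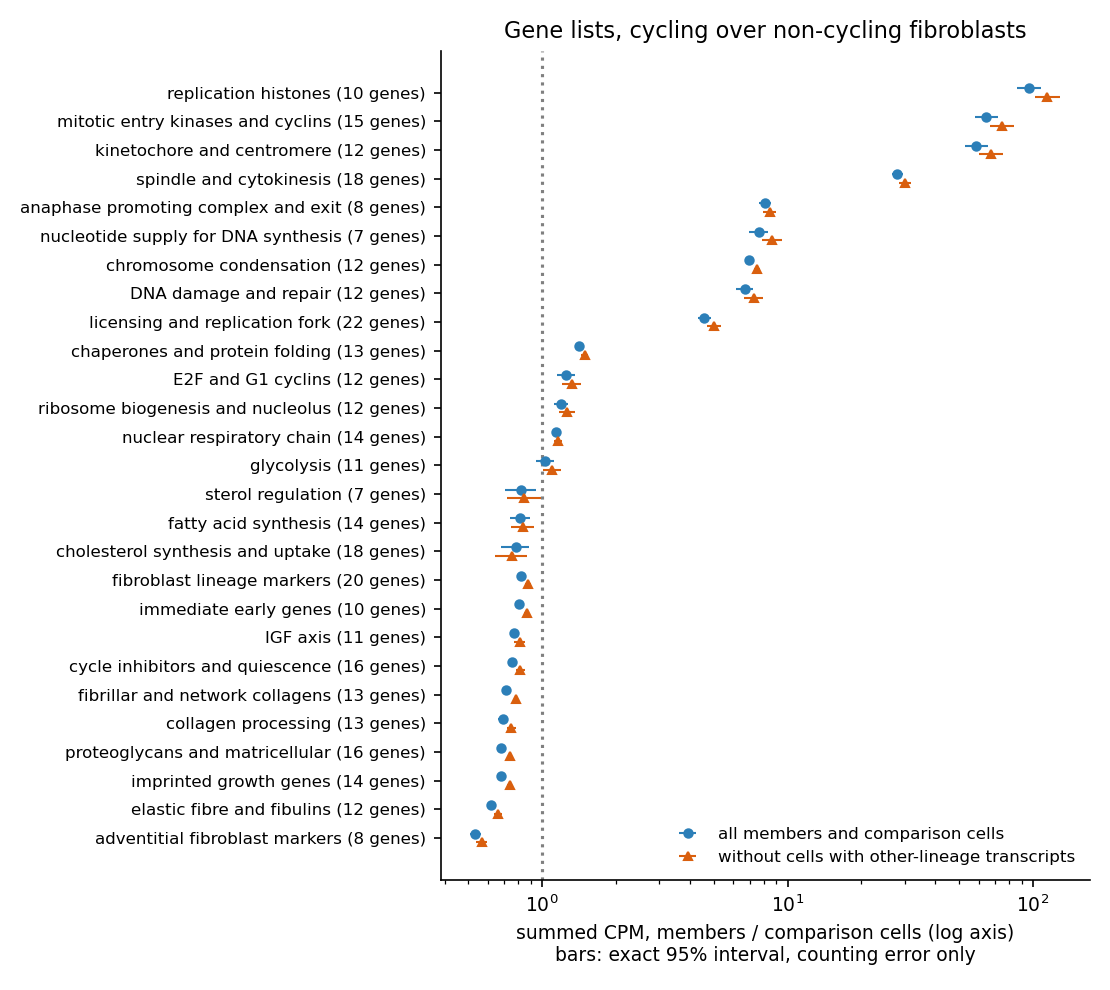
Ratio of summed CPM in cycling fibroblasts to comparison cells (x axis, log scale) for the gene lists named on the y axis, over all cells and with the other-lineage cells left out, with bars for exact 95% intervals that cover counting error only. Replication, repair, chromatin and mitotic lists lie right of the dotted line at 1, from 4.58 for licensing genes to 96.3 for histones, E2F and G1 cyclins lie near it at 1.25, and matrix and adventitial lists left of it, from 0.534 to 0.714. The lists drawn keep their side of 1 when the other-lineage cells are left out, and the lists of other cell types, some of which do not, are not drawn.

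The share of cycling cells was also taken within 3 fibroblast groups named by gene pairs, each cell being placed by at least 2 UMIs of a pair. Members were 14 of 682 cells with Pi16 and Pcolce2 (2.05%, 1.13 to 3.42%), 18 of 436 with Rspo3 and Cxcl14 (4.13%, 2.47 to 6.45%), 55 of 1590 with Mfap4 and Meox2 (3.46%, 2.62 to 4.48%) and 89 of 2751 placed with none (3.24%, 2.61 to 3.97%). All 4 intervals overlap. Between 2000 and 5000 UMIs the shares were 1.20% (0.389 to 2.77%), 2.27% (0.839 to 4.88%), 3.21% (2.16 to 4.57%) and 4.54% (3.47 to 5.83%), so there the interval of the Pi16 and Pcolce2 group lay below that of the cells placed with none, and the others overlapped. The first rests on 5 members. The shares without other-lineage cells were 1.73, 4.28, 3.40 and 2.86%. The Pi16 and Pcolce2 group had the lowest share in each of these 3 sets, and the position of the rest changed with depth.

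Gate, mitochondrial, ribosomal and unnamed genes were left out of the ranking of single genes. With 10 CPM added, the lowest ratio among the other genes with at least 100 UMIs belonged to Slfn5, a member of the Schlafen family that is induced by interferon (mm10, chr11:82951349-82964840, plus strand). It had 36.8 CPM in members and 224 in comparison cells (0.164, 0.109 to 0.238), was found in 20 members (0 to 5 UMIs) and 39.4% of comparison cells (0 to 15), and in 3.41% and 15.6% after thinning to 800 UMIs. After Slfn5 and Ogn, those with at least 10 UMIs in members included Fmo2, a flavin monooxygenase (21.0 against 85.3 CPM, 0.247), Kdm5b, a histone demethylase (27.6 against 103 CPM, 0.269), Igfbp3, a carrier of IGF (65.8 against 214 CPM, 0.307, 0.228 to 0.406), Smpd3, a sphingomyelinase (52.6 against 153 CPM, 0.343) and Idh1 (0.350, 0.237 to 0.498, but 0.151, 0.0689 to 0.289, in cells of at least 4000 UMIs). One of 2 identifiers listed as Aldoa had a ratio of 0.270 and is uncertain because the symbol is shared. Another 6 of the 15 lowest rested on 2 to 8 UMIs in members: Ccl5, Ptgs2, Tmem178b, Ahnak2, Ace and Ndrg4. All 15 were below 1 with and without the other-lineage cells and at 4000 or more UMIs. Igfbp3 was found in 4.55% of members and 14.2% of comparison cells after thinning.

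Growth-related genes showed no general rise. All 14 imprinted growth genes were below 1, together 10320 against 15200 CPM (0.679, 0.664 to 0.695), and 0 were past 2-fold with 10 CPM added. In cells of at least 4000 UMIs 1 was, H19, at 0.498 (0.468 to 0.531). H19, the abundant imprinted noncoding RNA, had 2250 against 4447 CPM (0.506, 0.482 to 0.531) and 0 to 63 UMIs per member (median 7, against 9 in comparison cells), and its neighbour Igf2, the fetal growth factor, had 1005 against 1934 CPM (0.520, 0.483 to 0.558). Dlk1 and Sgce stood at 0.969 and 1.00, and both at 1.08 without the other-lineage cells. The IGF axis list stood at 0.771 (0.736 to 0.806), with 8 of 10 tested genes below 1. Past 2-fold lower were 2, Igfbp3 and Pappa, against 0.998% of all genes. Pappa stood at 0.444, and at 0.514 and no longer past 2-fold without the other-lineage cells. Above 1 were Igf1 and Igfbp2. Igf1, the postnatal growth factor, was slightly higher (479 against 419 CPM, 1.14, 1.03 to 1.27). Igfbp2 was past 2-fold at 3.14, but 18 of its 29 UMIs came from 1 cell, and it stood at 1.51 (0.738 to 2.77) without the other-lineage cells. Of 15 tested growth factor receptors and ligands 1 was past 2-fold lower (0.998% of all genes were), Fgf10, a mesenchymal signal to epithelium, at 64.5 against 151 CPM (0.427, 0.315 to 0.566). Without the other-lineage cells it stood at 0.474 and, with 10 CPM added, was no longer past 2-fold. Myc had 19 UMIs in members (0.633, 0.378 to 0.997).

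The lists of glycolysis, respiratory chain, nucleolar and chaperone genes lay between 1.03 and 1.41. Glycolysis genes had a ratio of 1.03 (0.946 to 1.11), with Pgk1 at 2.00 and Ldha at 0.581, nuclear respiratory chain genes 1.14 (1.10 to 1.18), with Cycs at 2.04 and Cox7a2 at 1.84, and nucleolar genes 1.19 (1.11 to 1.28). Of 13 chaperone and folding genes, with a ratio of 1.41 (1.36 to 1.45), 3 were past 2-fold higher, against 4.06% of all genes: Ran, the GTPase of nuclear transport and spindle assembly (614 against 138 CPM, 4.46, 4.03 to 4.94), its partner Ranbp1 (2.11, 1.87 to 2.38) and Hsp90aa1 (2.16, 1.91 to 2.43), which stood at 1.75 and was not past 2-fold in cells of at least 4000 UMIs. Ppia, cyclophilin A, stood at 1.93 (1.83 to 2.02), and past 2-fold at 2.11 without the other-lineage cells, and Hspa5, the chaperone of the endoplasmic reticulum, at 0.683 (0.602 to 0.772). In the respiratory chain list 10 of 14 genes lay above 1, 6 of them with intervals wholly above it, and in the nucleolar list 6 of 12 and 5, with 0 past 2-fold in either. Among the chaperone and folding genes 8 of 13 lay above 1, with a median of 1.05.

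Since the study concerned SCAP, the genes of its pathway were read in the same cells. SCAP carries SREBP to the site proteases when sterols are low, and the released SREBP switches on cholesterol and fatty acid synthesis. Scap itself had 16 UMIs in 16 members, 21.0 against 27.1 CPM (0.777, 0.440 to 1.28), so a difference was not detectable at this depth. Srebf2, which encodes SREBP2, stood at 0.721 (0.483 to 1.04), and at 0.645 (0.402 to 0.984) without the other-lineage cells, where its interval lay below 1. Insig1, which retains SCAP and is itself an SREBP target, stood at 0.590 (0.341 to 0.953), and at 0.602 (0.327 to 1.02) without the other-lineage cells, where its interval held 1. Over 39 genes of sterol regulation, cholesterol synthesis and fatty acid synthesis the ratio was 0.804 (0.750 to 0.861), 29 of the 37 tested genes were below 1, with a median of 0.806 against 0.967 over all genes, and 1 was past 2-fold lower, against 0.998% of all genes. This was Scd1, a desaturase with 14 UMIs in members (0.314, 0.171 to 0.529). Hmgcs1, which makes HMG-CoA, had 61.8 against 75.7 CPM (0.817, 0.597 to 1.09), Fasn 0.463 (0.258 to 0.769) and Elovl5 1.36 (1.01 to 1.81). The pathway was therefore no higher in cycling fibroblasts than in comparison cells, and its enzymes gave few UMIs per gene.

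The cycling immune cells of the same library served as the most like group. They were 59 cells with at least 3 cycle UMIs, at least 2 UMIs of the immune gate genes and at most 3 collagen UMIs (median 3073 UMIs), and were set against 826 immune cells with 0 cycle UMIs (median 1391 UMIs). Their mitotic ratio was 22.3 (19.9 to 25.1) and their replication ratio 5.99 (5.45 to 6.57), against 37.7 and 5.31 in the fibroblasts. At the level itself, cycling fibroblasts had 1.33 times the mitotic CPM of cycling immune cells (1.25 to 1.41) and 0.635 times the replication CPM (0.586 to 0.690). Histone transcripts were lower in the fibroblasts too, 2506 against 4034 CPM. Cdkn2c was higher in the cycling cells of both lineages, at 25.0 times the level of the non-cycling cells in fibroblasts and 7.64 times (2.79 to 21.2) in immune cells. Its level was 330 CPM in cycling fibroblasts and 49.3 CPM (10 UMIs) in cycling immune cells, a ratio of 6.70 (3.58 to 14.1). Lists that lay at 1.03, 1.14 and 1.41 in the fibroblasts stood further from 1 in the immune cells, glycolysis at 1.75 (1.57 to 1.94), respiratory chain at 1.53 (1.44 to 1.63) and chaperones at 1.72 (1.64 to 1.81), and the lipid genes stood at 1.16 (0.994 to 1.36). Ccnd2 was lower in cycling cells of both lineages, at 0.494 and 0.589. Matrix genes were also lower in both, at 0.686 in the fibroblasts and 0.734 (0.633 to 0.848) in the immune cells. The matrix level in immune cells was low, 1011 against 1377 CPM, and its source was not tested. The 2 lineages differ in depth and in the rule that named them, and each is 1 group of 1 library, so these are values side by side with counting error only.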

How the data were processed

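A 10x Genomics 3′ library of a Scap f/f pancreas pool was analysed. The authors deposited UMI counts per gene and barcode, made with Cell Ranger 7.1.0 on mm10 per the submitters' processing notes, and the values were used as deposited, with no normalization by the authors. The table held 11789 barcodes and 51540177 UMIs, of which 10129 barcodes with 31013600 UMIs were retained by the limits on UMIs and mitochondrial share that the opening gives. Cell types named above are groups set by marker genes and not an annotation of the authors.

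UMIs were summed over the cells of a group and divided by the group's total (CPM). Intervals are exact: Poisson for a CPM, conditional binomial for a ratio of 2 CPM and Clopper-Pearson for a share, each at 95%, and they cover counting error only. Genes named outside the lists were the 15 highest and 15 lowest ratios with 10 CPM added, among genes with at least 100 UMIs and without gate, mitochondrial, ribosomal and unnamed genes, and the 5 with the most UMIs in members (Col3a1, Ctrb1, Malat1, Col1a2 and Col1a1). Values of some single genes that the rule or the lists hold are not reported here. Thinning drew UMIs without replacement with a fixed seed. Doublets were scored with Scrublet (scanpy 1.11.5, expected doublets 8%) and were not removed, and no cell was removed in the main values for other-lineage transcripts. Promoters came from the RefSeq table for GRCm38.p6 and gene positions from GENCODE M21. No printed stretch overlaps the annotated body of its own gene, and overlap with other genes was not examined. Python 3.11.15, numpy 2.4.6, scipy 1.17.1 and pandas 2.3.3 were used, and the ratio and thinning steps were tested on simulated data. The members and the gene lists were chosen with earlier results of these data known, and no list is independent evidence. The alternatives tried changed the UMI and mitochondrial limits, the cycle and collagen gates, the gates of the comparison cells, doublets, depth, denominator, pseudocount and minimum count.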

Additional observations from a re-analysis of the deposited data

Results flagged for a closer look

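Among barcodes of 10000 or more UMIs, which the retained cells leave out, 48 passed every other gate of the cycling fibroblasts, a signal in barcodes that none of the comparisons above used. They were 22.0% (exact interval 16.7 to 28.1%) of the 218 barcodes of that depth that passed the collagen gate and the gates at 0 UMIs, against 3.22% among retained cells. Their median depth was 16470 UMIs, and the gates were the same fixed numbers of UMIs at every depth. By the criteria used for the members, 26 of the 48 carried transcripts of another lineage, 21 of them with over 5% acinar enzyme UMIs, and 22 carried none. At least 10 UMIs of 8 epithelial genes were found in 20 of the 48 and in 2 of the 176 members. The collagen gate genes gave a median of 56.5 UMIs, 0.218% of the UMIs of these barcodes, against 1.96% in members. In retained cells with over 30% acinar enzyme UMIs this share was 0.114% (90th percentile 0.284%). The part of doublets and of epithelial cells in this count was not tested.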

How the results depend on the processing

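No paired analysis was possible because 1 library was analysed. In 15 alternatives that recomputed ratios, 34 of the 35 genes named by size and 37 of 46 gene lists stayed on their side of a ratio of 1. The number of members ran from 127 with 5 cycle UMIs required to 224 with an upper limit of 100000 UMIs, against 176, and was smaller where cells of at least 4000 UMIs were required for ratios.

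Replication genes, at 5.31, moved to 4.27 at the 100000 limit, 4.96 with 5 cycle UMIs required, 5.02 with 2, 5.67 with 20 collagen UMIs, 5.02 in cells of at least 4000 UMIs, 5.88 without other-lineage cells and 5.78 with both. Mitotic genes, at 37.7, moved in the same order to 26.5, 42.8, 33.1, 40.6, 39.5, 41.4 and 45.5, to 41.9 without any other immune UMI and to 36.1 against comparison cells without the gates at 0 UMIs. Matrix genes, at 0.686, moved in the first order to 0.487, 0.701, 0.697, 0.732, 0.655, 0.744 and 0.732, to 0.744 and 0.728 in the latter pair, to 0.695 without Scrublet-marked cells, 0.710 as a mean of CPM per cell and 0.703 with mitochondrial genes and acinar enzymes out of the denominator. The lipid genes moved from 0.804 to 0.936 at the 100000 limit, where epithelial genes stood at 7.02 against 1.08. Genes past 2-fold higher numbered 622 with no minimum of UMIs and 672 with 1 CPM added in place of 10, which also gave 635 lower. With 5 cycle UMIs required, 2.33% of the Mfap4 and Meox2 cells were cycling.

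The 9 lists that crossed 1 in at least 1 alternative were glycolysis (1.03, range 0.904 to 1.20), the Rspo3 and Cxcl14 pair (0.928, 0.584 to 1.30, and 1.00 without other-lineage cells), and epithelial (1.08, 0.367 to 7.02), pericyte (1.14, 0.852 to 1.24), other immune (0.794, 0.265 to 1.63), other mesothelial (0.938, 0.340 to 2.40), acinar, Schwann and red blood cell genes. Acinar enzymes, at 2.13, stood at 0.715 with 20 collagen UMIs, 0.909 without other immune UMIs, 0.851 without other-lineage cells and 0.932 with 4000 UMIs required as well, and Ctrb1, at 2.01, at 0.703, 0.881, 0.875 and 0.945. Schwann genes moved from 3.37 to 0.802 without other-lineage cells, and red blood cell genes from 2.10 to 0.918, or 0.948 with 4000 UMIs required as well. Leaving out other-lineage cells was chosen after seeing the data.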

Other observations

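Adipocyte lineage genes were read because the paper proposes a mesenchymal origin for the adipocytes of Scap-deleted pancreata. Those adipocytes lacked the lineage label that Pdx1-Cre switches on, and Scap-deleted mice were not analysed here. Of the 10 genes, 6 had at least 100 UMIs, and all 6 were below 1 in cycling fibroblasts, together at 1344 against 1780 CPM (ratio 0.755, 0.709 to 0.804), with 0 past 2-fold. Lpl, lipoprotein lipase, gave most of the sum, at 1234 against 1612 CPM (0.765, 0.716 to 0.817), and Fabp4, a fatty acid carrier, stood at 32.9 against 53.2 CPM (0.618, 0.397 to 0.918). Zfp423, a factor of preadipocytes, stood at 28.9 against 51.6 CPM (0.561, 0.350 to 0.856). Pparg and Adipoq, which mark committed and mature adipocytes, had 2 and 0 UMIs in the 176 members, so a difference was not detectable at this depth.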
